A study of Mus musculus with 14 samples.

Results

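The splicing factors and spliceosome proteins on these arrays comprised 84 genes out of 9290 with a value on at least 10 of 14 arrays. They were chosen by symbol alone: every gene whose array annotation gave a symbol beginning with Srsf, Sfrs, Hnrnp, Hnrp, Sf3a, Sf3b, U2af, Snrp, Snrnp, Prpf, Luc7l, Rbm, Srrm or Tra2. Of 87 such symbols, 84 reached 10 arrays. Hnrnpdl, with 9 arrays, and Prpf19 and Rbm18, with 7 each, fell short, and their means were 0.49, 0.16 and -0.25. Just inside the limit were 6 genes with 10 arrays each (Hnrnpd, Rbm8a, Rbmx, Snrnp27, Srrm4 and Srsf2), with means from -0.22 to 0.65. The name splicing genes is used below for this set, though a symbol does not show that a gene acts in splicing.

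Total RNA of mouse fibroblasts lacking Ptdsr (Ptdsr-/-), the phosphatidylserine receptor gene now called Jmjd6, was compared with RNA of wild-type (wt) fibroblasts on 14 two-colour cDNA arrays. Both RNAs were hybridised together, 7 times with Cy5 on the knockout RNA and 7 times with the dyes swapped. The wild type was the common partner on every array, so its own spread was not measured. The series design names 2 cell cultures without saying which arrays came from which, so the p-values measured the spread between arrays, part of which may be technical. The protocol text also speaks of organs and of a pool of control animals, whereas the channel labels give fibroblasts for both RNAs. The labels used here do not state how the gene was inactivated, nor the age or strain of the source animals.

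Values below are median-centred log2 ratios, knockout divided by wild type, so that a value of 1 is 2-fold. The labels do not state the direction, and knockout over wild type is the reading taken here. A coded extreme value was positive on the 7 Cy5-knockout arrays and negative on the 7 Cy3-knockout arrays. A Cy5 over Cy3 ratio already turned to knockout over wild type would give that pattern. A Cy3 over Cy5 ratio turned to wild type over knockout would give it too, and each direction below would then be reversed. A ratio says nothing of a gene's level, so levels were not compared between genes, and whether fewer cells of a type or less RNA per cell lay behind a ratio cannot be told apart.

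Pre-mRNA splicing removes introns in the spliceosome, which is built from small nuclear ribonucleoproteins (snRNPs) and many further proteins. The U1 snRNP marks the 5′ splice site, the U2 auxiliary factor (U2AF) and the U2 snRNP mark the 3′ splice site and the branch point, and the U4/U6.U5 tri-snRNP then joins to form the catalytic core. Serine and arginine rich (SR) proteins generally promote the use of an exon and heterogeneous nuclear ribonucleoproteins (hnRNPs) often oppose it. The Jmjd6 protein is a nuclear oxygenase known to hydroxylate lysines of the large U2AF subunit, and to bind arginine and serine rich proteins such as those of the Luc7l family. The large subunit gene, U2af2, was not analysed here. The probes measured transcript ratios, not protein modification and not splice forms.

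The arrays as a whole showed few differences. Usable ratios numbered 13165 to 19615 of 20355 probes per array, fewest on replicates 1 and 2, and the number of arrays limits the precision. Over all 9290 genes, 8 (0.0861%) differed at an adjusted p below 0.05 (limma, Benjamini-Hochberg), all lower in the knockout. The probes of the targeted gene checked little: the Jmjd6 probe with values on 14 arrays had a mean of -0.51 ± 1.14 (SD) and was below 0 on 12, while the other, on 5 arrays, had a mean of 0.27 ± 1.10 (SD). As the average of both probes, Jmjd6 had an estimate of -0.25 and was not called (limma, adjusted p = 0.934). The labels do not say whether either probe lies in a part of the gene altered in the knockout. Ratios cannot show whether the fibroblast markers were present at all. Of 11 tested 0 were called, with a median of -0.16 and 2 lower at an unadjusted p below 0.05. Of 7 macrophage and leukocyte markers 1 was called, Lyz2, with a list median of -0.41 and array means of the list between -2.20 and 0.14. The part of these markers in the splicing values was not tested.

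Promoter sequence was not used in the choice by symbol, and 5 words were counted in it with no test. In the 250 bases before a RefSeq transcript start (GRCm38.p6), the word CCGGAAGT, searched on both strands, occurred in 11 of the 73 splicing genes with a promoter entry (15.1%) and in 437 of 7507 genes tested on the arrays (5.82%). A gene counted if the bases before any of its starts held the word, and starts per gene were not compared between the sets. CCGGAAGT is a form of the binding word of ETS factors, and a match is a description, not a site. The word TATAAA occurred in 13.7% of the 73 against 8.65% of the 7507 and CCAAT in 46.6% against 40.4%, also on both strands. Of the remaining words, the palindrome bound by NRF1 occurred in 4.11% against 1.65%, and the CGCG element bound by BANP in 0 of the 73 against 0.826%. The median GC content was 59.6% in the splicing genes and 59.2% over all. The 40 bases around CCGGAAGT are shown for 3 of the 11 genes whose ratios are given in more detail below, 5′ to 3′ on the strand of the gene, with the word in capitals (as ACTTCCGG where the match was on the other strand). The Srsf5 stretch lies at chr12:80945392-80945431 (plus strand), that of Sf3a3 at chr4:124714754-124714793 (plus strand) and that of Snrnp27 at chr6:86684512-86684551 (minus strand). 
Srsf5: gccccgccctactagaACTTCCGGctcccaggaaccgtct
Sf3a3: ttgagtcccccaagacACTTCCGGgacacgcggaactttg
Snrnp27: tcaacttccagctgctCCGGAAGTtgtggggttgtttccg
The mean log2 ratios of the 11 genes with the word ran from -0.22 to 0.52 with a median of 0.02, and those of the 62 without it from -0.48 to 0.46 with a median of 0.05. The 2 ranges overlapped.

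The comparison of knockout with wild type asked whether transcripts of the genes chosen by symbol differ without Ptdsr. None of the 84 genes changed past the threshold in either direction (limma, adjusted p of 0.903 or higher). At an unadjusted p below 0.05, 0 of the 84 differed by limma, where 5.35% of all genes did (2.4% higher and 2.95% lower). An exact permutation test that turned the sign of each array, two-sided and counted over all genes only after the data had been seen, gave 4 splicing genes at an unadjusted p below 0.05, or 4.76% against 6.72% of all genes. Of these, 3 were higher (background 3.22%) and 1 was lower (background 3.5%). The 4 were Snrnp70, Hnrnpa1, Rbm12b1 and Srsf5, and their adjusted p in that permutation test was 0.545 to 0.706. The permutation test uses only the gene's own values, whereas limma moves each variance towards the typical one.

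The limma estimates of the 84 genes, which weight both dye orientations equally, lay on both sides of 0. They ran from -0.48 to 0.65 with a median of 0.05, against 0.002 over all genes, and 50 (59.5%) were above 0, against 50.4% of all genes. The 24 Rbm genes, which differ in function, held 18 of those above 0 and 6 of those below. The share above 0 gives no test, as genes on the same arrays are not independent. An estimate beyond 0.5 in size occurred in 2 genes, Rbm8a at 0.65 and Snrnp27 at 0.52. Counts above and below 0 and medians of families below are of these estimates. No splicing gene had the same sign on every array that measured it, as 0.237% of all genes did.

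**Figure D1:**
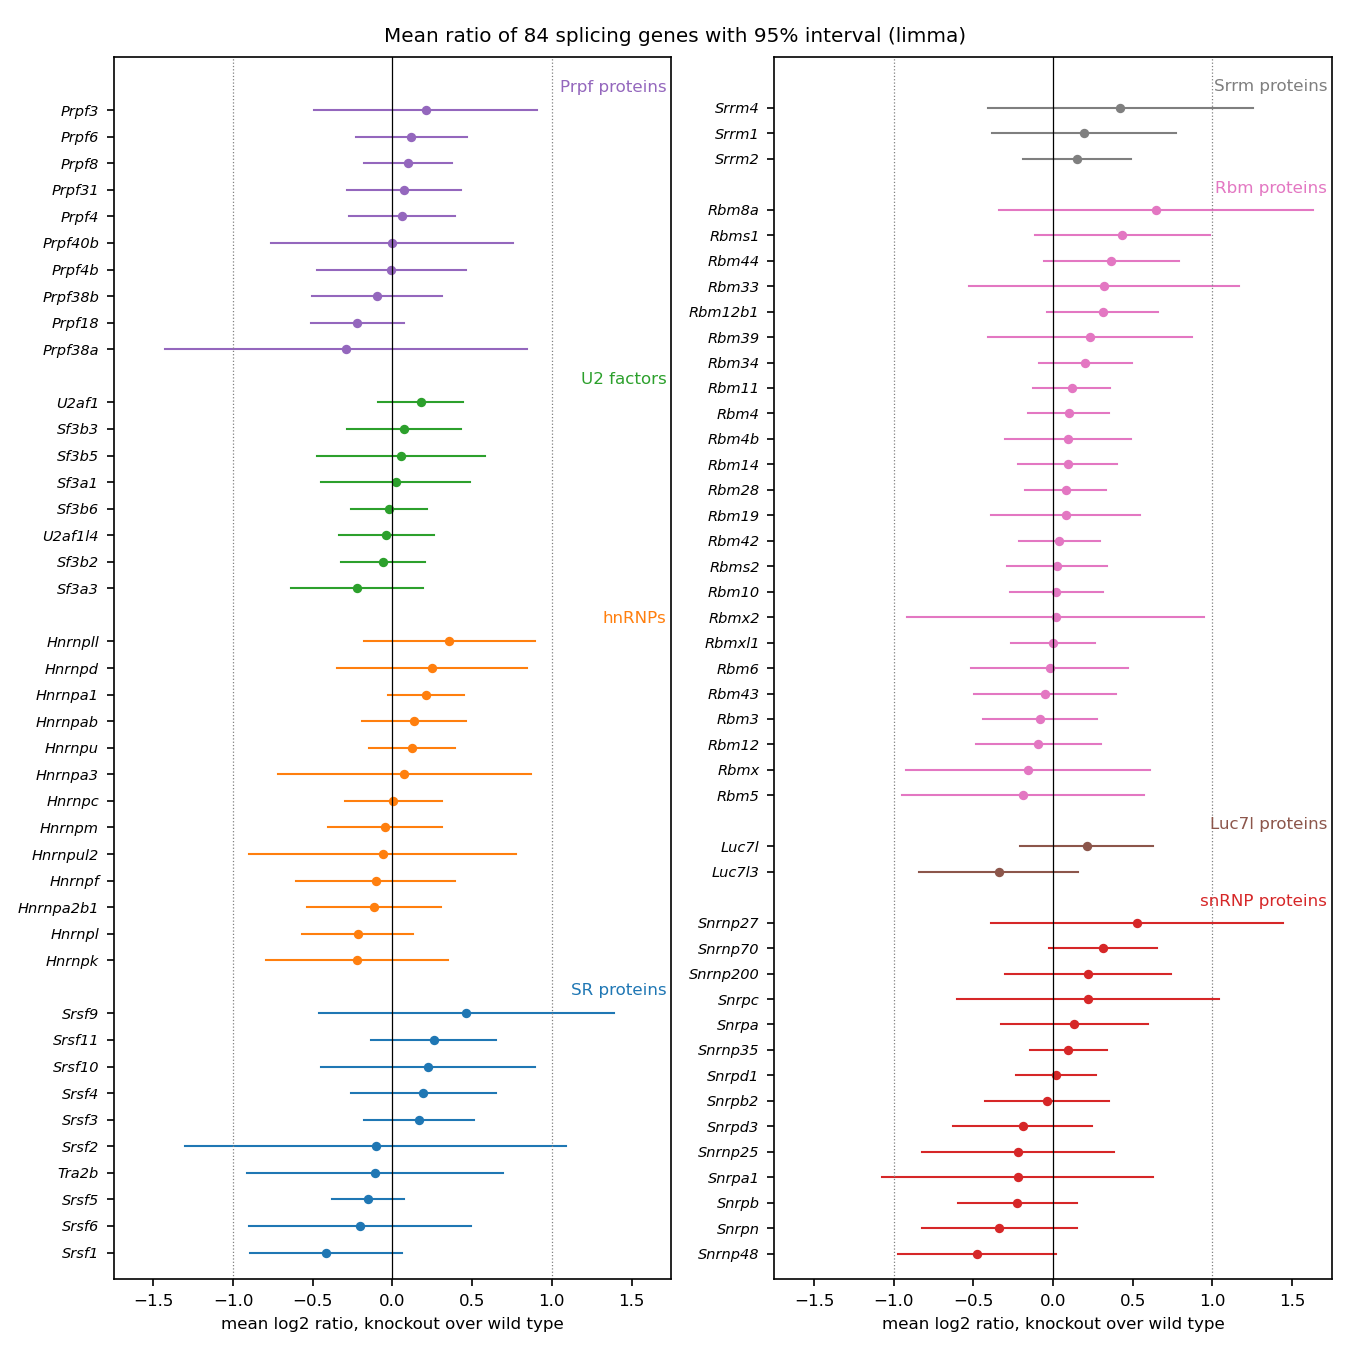
Mean log2 ratio (knockout over wild type, x axis) of each of the 84 splicing genes, with the 95% interval from limma as a bar and 2-fold changes as dotted lines, grouped by family. Every interval includes 0, and 9 reach a 2-fold change.

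How large a change could have gone unseen differed between genes. The limma 95% intervals reached between 0.22 and 1.20 log2 units to either side of the mean, with a median of 0.42. For 42 genes (50.0%) the whole interval lay within 1.5-fold of no change, where 42.6% of all genes had such an interval. For 75 genes (89.3%) it lay within 2-fold, against 81.1% of all. The intervals of the other 9 reached a 2-fold change. For a gene with several probes the interval is that of their average, in which probes of opposite sign partly cancel. Prpf18 and Rbm6 are among the 42, though their probe means were -0.68 and 0.31, and -0.58 and 0.31. The SD between arrays had a median of 0.60 for the 47 genes on 14 arrays and of 0.99 for the 37 on 10 to 13 arrays. Over all genes these medians were 0.65 and 1.02.

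Among the SR proteins, 5 of 10 means lay above 0 and 5 below, with a median of 0.03. Srsf1, which binds exon enhancers and helps U1 choose the 5′ splice site, had values from -2.07 to 0.94 with a median of -0.25, and was below 0 on 11 of 14 arrays. Its mean of -0.42 ± 0.84 (SD, n = 14) was the lowest of the family and did not pass (limma, adjusted p = 0.903, unadjusted p = 0.0817). Both Srsf1 probes had negative means, -0.50 and -0.26, but correlated at -0.28 across arrays. The probe at -0.26 was above 0 on 8 of 13 arrays and had a lowest value of -4.89.

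Srsf5, an SR protein of the same kind, had the lowest SD of the 84 as a mean of 2 probes. Its values ran from -0.53 to 0.31 with a median of -0.17, and it too was below 0 on 11 of 14 arrays. The mean was -0.15 ± 0.25 (SD, n = 14, limma adjusted p = 0.903), and its 95% interval of -0.38 to 0.07 lay within 1.5-fold. The probes had close means of -0.15 and -0.16, but SDs of 0.374 and 0.448, and correlated at -0.30 across arrays. The exact sign permutation gave an unadjusted p of 0.0380 and an adjusted p of 0.691.

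Srsf9 stood at the other end of the family with values from -1.95 to 3.42 over 11 arrays. Its median was -0.09, below 0, while its mean was 0.53 ± 1.67 (SD, n = 11), so the median and the mean differed in sign. Srsf2, the speckle protein SC35, had the widest spread of the 84, at -0.22 ± 1.94 (SD, n = 10), and its estimate of -0.11 with an interval of -1.30 to 1.09 includes a 2-fold change either way. Srsf3 (0.17), Srsf4 (0.19), Srsf10 (0.22) and Srsf11 (0.26) had positive means, and Srsf6 (-0.20) and Tra2b (-0.10), an activator of exon inclusion, negative ones.

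The 13 hnRNPs had a median of 0.004, with 7 means above 0 and 6 below. Hnrnpa1, which binds exon silencers and opposes SR proteins, had values from -0.28 to 0.67 with a median of 0.19, and was above 0 on 10 of 14 arrays. Its mean was 0.21 ± 0.29 (SD, n = 14), with nearly the same value in both dye orientations, 0.23 with Cy5-labelled knockout RNA and 0.19 with Cy3. It did not pass in limma (adjusted p = 0.903, unadjusted p = 0.0829), and the exact sign permutation gave an unadjusted p of 0.0203 and an adjusted p of 0.595. Hnrnpa1 has near-identical processed copies in the mouse genome, and cross-hybridisation of its probe was not measured.

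The highest and lowest hnRNP means were less certain. Hnrnpll, known for its part in Cd45 splicing in lymphocytes, had values from -1.49 to 2.48 and a mean of 0.36 ± 1.11 (SD, n = 14). Hnrnpk, which binds C-rich RNA, had values from -2.51 to 1.10, a median of 0.02 and a mean of -0.23 ± 0.99 (SD, n = 13). Hnrnpc, which binds U-rich tracts, lay at 0.004 ± 0.46 (SD, n = 14). The Hnrnpa2b1 mean was -0.12, that of Hnrnpl -0.22, that of Hnrnpm -0.05 and that of Hnrnpu 0.12.

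**Figure D2:**
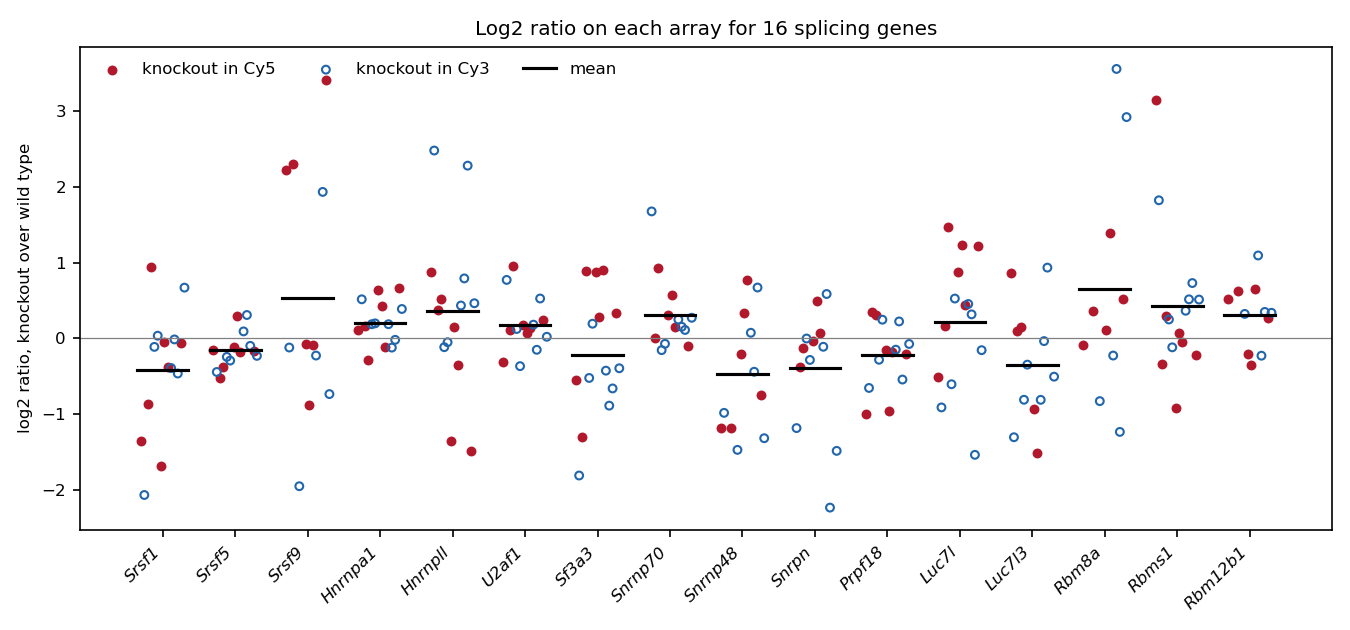
Log2 ratio (knockout over wild type, y axis) on each array for 16 splicing genes, with filled points for arrays with the knockout in Cy5, open points for Cy3, and a bar at the mean. Srsf5 and Hnrnpa1 have the lowest SDs, whereas Rbm8a, Srsf9 and Rbms1 range over more than 4 log2 units.

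The factors that mark the 3′ splice site and branch point had the lowest median SD of the families, 0.48. Among the 8, 6 had values on all 14 arrays, and such splicing genes had a lower median SD than those with fewer. Of these 8 genes 4 had means above 0 and 4 below, with a median of 0.0001, and 7 had intervals within 1.5-fold. U2af1, the small U2AF subunit that reads the AG at the intron end, had values from -0.37 to 0.96 with a median of 0.13 and was above 0 on 11 of 14 arrays. The mean was 0.18 ± 0.37 (SD, n = 14, limma adjusted p = 0.903), and was 0.20 in the Cy5 orientation and 0.16 in the Cy3 one. Its interval of -0.09 to 0.44 lay within 1.5-fold. U2af1l4, a relative of U2af1, stood at -0.04 ± 0.31 (SD, n = 11).

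Among the subunits of SF3a and SF3b, the U2 snRNP complexes at the branch point, Sf3b6 lay at -0.02 ± 0.29 (SD, n = 14) with values from -0.39 to 0.50. Sf3b6 contacts the branch point adenosine itself. Sf3b2 (-0.06), Sf3b3 (0.07), Sf3b5 (0.06) and Sf3a1 (0.02) had means within 0.1 of 0. Sf3a3 was the lowest of the group, with values from -1.81 to 0.90, a median of -0.41 and a mean of -0.22 ± 0.83 (SD, n = 14). Its probes correlated at -0.60 across arrays. The probe with 14 values had a mean of -0.09, and the other, with a lowest value of -5.64, a mean of -0.41.

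The snRNP proteins held both the smallest and the second smallest p of the 84, in opposite directions. Snrnp48, a protein of the U11/U12 particle that serves the rare minor introns, had values from -1.47 to 0.77 with a median of -0.60, and a mean of -0.48 ± 0.79 (SD, n = 12, limma adjusted p = 0.903, unadjusted p = 0.0579). Its values split by replicate number. Among replicates 1 to 6 all 4 values were below 0, with a mean of -1.21, among replicates 7 to 12 the mean of 6 was 0.20, and among replicates 13 and 14 it was -1.04. The number ranges are no labelled groups. With them as a fixed block the Snrnp48 estimate was -0.68 (limma, adjusted p = 0.221). That model gives each range equal weight, so replicates 13 and 14 count as much as each larger range. How many genes split in the same way was not counted. Of the other minor spliceosome proteins, Snrnp35 stood at 0.10 ± 0.30 (SD, n = 14) and Snrnp25 at -0.22 ± 1.06 (SD, n = 12) with a median of 0.02.

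Snrnp70, the U1 protein that helps hold SR proteins at the 5′ splice site, had values from -0.16 to 1.68 with a median of 0.15 and was above 0 on 10 of 13 arrays. Its mean was 0.31 ± 0.50 (SD, n = 13, limma adjusted p = 0.903, unadjusted p = 0.0679), at 0.31 in the Cy5 orientation and 0.32 in the Cy3 one. Its exact sign permutation p of 0.0149 was the smallest of the 84, with an adjusted p of 0.545. Without replicate 2, its highest value, the Snrnp70 estimate was 0.20. The probes had means of 0.14 and 0.48 and correlated at -0.57 across arrays.

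Other snRNP proteins were spread around 0. Snrpn, the imprinted SmN protein made mostly in brain, had a mean of -0.39 ± 0.83 (SD, n = 12), which was 0.001 in the Cy5 orientation and -0.68 in the Cy3 one. Snrnp27 of the tri-snRNP had values from -2.20 to 3.06 and a mean of 0.43 ± 1.46 (SD, n = 10), or 0.52 when both dye orientations are weighted equally. Without replicate 11, its highest value, the Snrnp27 estimate was 0.18. The Sm core protein Snrpd1 lay at 0.02 ± 0.33 (SD, n = 14), and the helicase Snrnp200 at 0.22 ± 0.88 (SD, n = 13). Over the 14 genes the median was -0.01, with 7 above 0 and 7 below.

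The Prpf proteins, named after yeast splicing mutants, had a median of 0.03 over 10 genes, 5 above 0 and 5 below. Prpf8, the large protein at the catalytic core, lay at 0.09 ± 0.35 (SD, n = 13), and its interval lay within 1.5-fold. Prpf18, which acts in the last catalytic step, was below 0 on 10 of 14 arrays with a mean of -0.22 ± 0.44 (SD, n = 14), but its probes opposed each other. One was below 0 on 12 of 14 arrays with a mean of -0.68 (limma among all probes, adjusted p = 0.730), and the other was above 0 on 9 of 13 with a mean of 0.31. Prpf3 of the U4/U6 particle (0.25 ± 1.21, SD, n = 11) and Prpf38a (-0.31 ± 1.89, SD, n = 11) each had 1 value far from the rest, -3.06 and -4.76.

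Both Luc7l genes encode U1-associated proteins of the kind that Jmjd6 binds, and their means had opposite signs. Luc7l3 had values from -1.52 to 0.93 with a median of -0.43 and was below 0 on 8 of 12 arrays, with a mean of -0.35 ± 0.78 (SD, n = 12, limma adjusted p = 0.903). Luc7l was above 0 on 9 of 14 arrays, with a mean of 0.21 ± 0.88 (SD, n = 14, limma adjusted p = 0.919). The Luc7l sign rested on 1 probe with values on 8 arrays, as the probe with 13 values had a mean of -0.04.

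The 24 Rbm genes share an RNA binding motif and differ in function. Of these, 18 had means above 0 and 6 below, with a median of 0.08, and 0 were called. Rbm8a encodes Y14 of the exon junction complex, laid down on spliced mRNA. It had the highest mean of the 84, 0.65 ± 1.55 (SD, n = 10), with values from -1.24 to 3.56 and a median of 0.23, and its interval of -0.34 to 1.63 includes both no change and a 2-fold rise. Without replicate 11 the Rbm8a estimate was 0.31 and without replicate 14 it was 0.39. Rbms1, a protein that binds single-stranded DNA and RNA, was next within the family at 0.43 ± 0.999 (SD, n = 14). Without replicate 1, its highest value at 3.15, the Rbms1 estimate was 0.19. Its probes had means of 0.89, 0.16 and 0.12, the first with a highest value of 6.14.

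Rbm12b1 ranged from -0.36 to 1.09, above 0 in 8 of 11 cases, with a mean of 0.31 ± 0.43 (SD, n = 11, limma adjusted p = 0.903). Rbm44, a germ cell protein, stood at 0.33 ± 0.70 (SD, n = 11). Rbm5 had the lowest mean of the family at -0.19 ± 1.47 (SD, n = 14), with 1 value of -4.53. Rbm4b, Rbm4 and Rbm14 are neighbours in the genome and had means of 0.09, 0.10 and 0.09. The neighbours Rbm5 and Rbm6 stood at -0.19 and -0.02. Rbm4 and Rbm4b are close copies, and cross-hybridisation between them was not measured.

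The 3 Srrm genes, for matrix proteins with serine and arginine repeats, all had means above 0. Srrm2, a scaffold of nuclear speckles, had 5 probes with means from -0.23 to 0.71 and a gene mean of 0.15 ± 0.58 (SD, n = 14). Replicate 1 held its highest value, 1.95, and without it the Srrm2 estimate was 0.02. Srrm4, an activator of microexons in neurons, had a median of -0.01 and a mean of 0.42 ± 1.28 (SD, n = 10). Without replicate 11 the Srrm4 estimate was 0.07, and without replicate 3 it was 0.22. The Srrm1 mean was 0.17 ± 1.06 (SD, n = 13).

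Single arrays set part of the size of several further estimates. Without replicate 2 the estimate of Srsf1 was -0.27, that of Hnrnpll 0.23 and that of Hnrnpk -0.04, which was -0.07 without replicate 1. That of U2af1 was 0.11 without replicate 4, that of Luc7l3 -0.18 without replicate 9 and that of Snrpn -0.21 without replicate 12. Srsf9 stood at 0.19 without replicate 12 and at 0.24 without replicate 13, and Sf3a3 at -0.10 without replicate 3 and -0.12 without replicate 2. The sign turned for Prpf38a, to 0.13 without replicate 5, and for Rbm5, to 0.14 without replicate 4, while Prpf3 ranged from 0.05 without replicate 13 to 0.56 without replicate 1. In contrast, the estimates of Hnrnpa1, Srsf5, Snrnp48, Prpf18, Luc7l, Rbm12b1 and Rbm44 moved by less than 1.5 times whichever array was left out.

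The dye orientation was compared in the same model, and 0 of the 84 genes differed between orientations (limma, adjusted p of 0.473 or higher), where 0.0431% of all genes did. At an unadjusted p below 0.05 there were 5 (5.95%), against 7.42% of all genes: Rbm12, Luc7l, Rbm3, Sf3a3 and Hnrnpll. Rbm12 had values from -2.15 to -0.003 in the Cy5 orientation, all below 0, and from -0.31 to 1.20 in the Cy3 one. Its means were -0.76 ± 0.83 and 0.57 ± 0.51 (SD, n = 7 each; limma adjusted p = 0.473), and the orientations overlapped. Rbm3, a cold-shock protein, stood at 0.29 in Cy5 and -0.45 in Cy3, Luc7l at 0.70 and -0.27, Sf3a3 at 0.20 and -0.65, and Hnrnpll at -0.18 and 0.90. Means lay on both sides of 0 in the orientations for 45 of the 84 genes (53.6%), close to the 52.9% of all genes. If the swapped arrays had not been turned before deposit, this dye comparison would be the knockout comparison, and it also called 0.

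**Figure D3:**
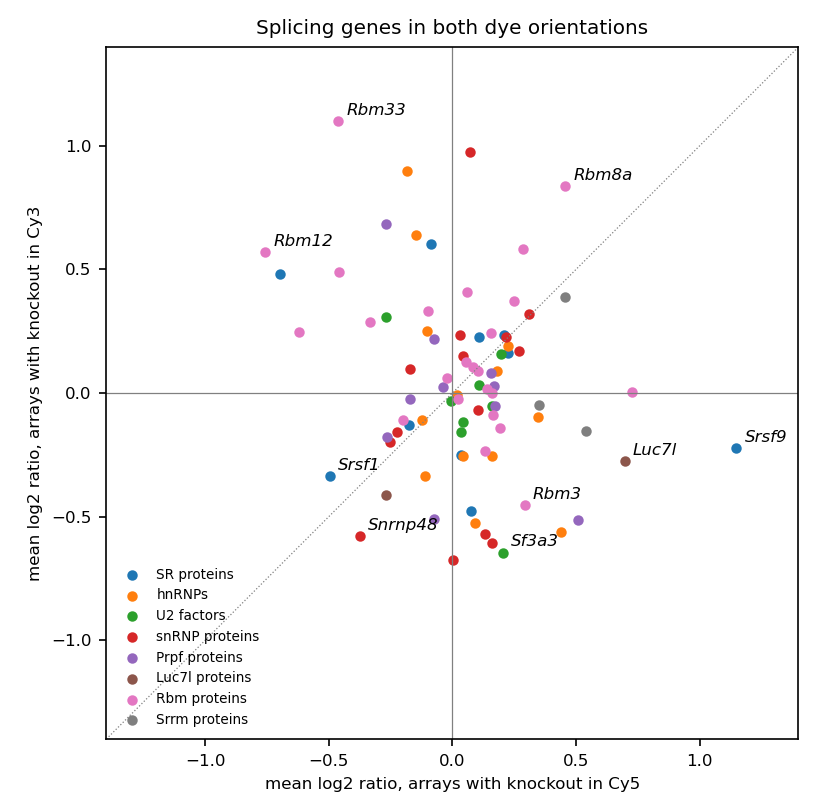
Mean log2 ratio of each splicing gene on arrays with the knockout in Cy5 (x axis) and in Cy3 (y axis), coloured by family, with the line of equal values dotted. The points do not follow the line: 26 genes are above 0 in both orientations, 13 below 0 in both, and 45 differ in sign.

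The splicing genes lay near the centre of each array. Their median on an array ran from -0.12 on replicate 2 to 0.12 on replicate 7, and was above 0 on 10 arrays and below on 4. Their middle 50% was narrower than that of all genes on 11 of 14 arrays. Of 1096 single values, 17.7% were beyond 1 in size, against 19.7% over all genes. The widest arrays were replicates 1, 2, 4, 11 and 12, for splicing genes and for all genes alike. By replicate number, the median of the gene means was 0.02 for replicates 1 to 6, 0.03 for 7 to 12 and 0.07 for 13 and 14.

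**Figure D4:**
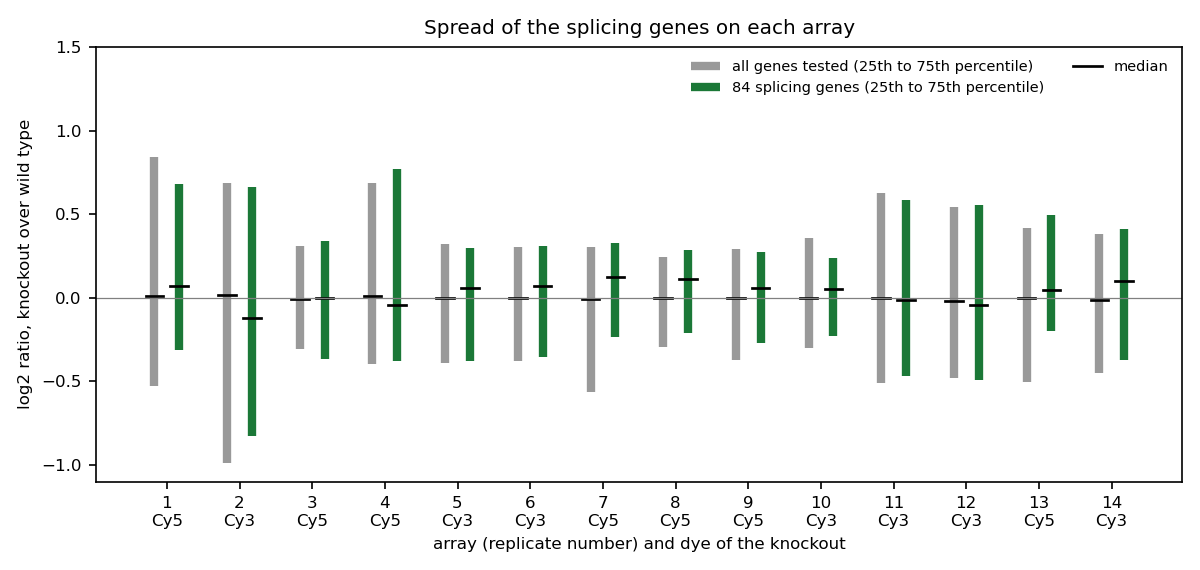
The 25th to 75th percentile (bars) and median (black lines) of the log2 ratios on each array, for all genes tested (grey) and the 84 splicing genes (green), with the dye of the knockout under each replicate number. The splicing medians lie between -0.12 and 0.12, and replicates 1, 2, 4, 11 and 12 are widest for both sets.

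Across arrays, pairs of splicing genes showed little common movement. Between the 47 with values on all 14 arrays, the median Pearson correlation over 1081 pairs was 0.03, against 0.007 for pairs of all such genes. These are descriptions over arrays that may share RNA, as the labels do not tie arrays to cultures. The extremes, picked after they were seen, were Prpf6 with Sf3b3 at 0.83 and Snrpa1 with Snrpb2 at -0.84. Snrpa1 and Snrpb2 encode the A′ and B″ proteins of the U2 snRNP, which bind each other. Snrpa1 had its lowest value, -3.53, on replicate 7, where Snrpb2 had its highest, 1.22. The highest Snrpa1 value, 3.46, was on replicate 13, where Snrpb2 had its lowest, -1.68. Their correlation without these arrays was not computed.

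Probes of the same gene often differed in sign. Of the 32 splicing genes with more than 1 probe on at least 10 arrays, 18 (56.3%) had probe means on both sides of 0, close to the 54.6% of 2611 such genes over the arrays. The gap between the highest and lowest probe mean had a median of 0.36, and 0.30 over all. Across arrays, the median correlation between probes of a gene was 0.07, and it was above 0.5 for 3 genes, Hnrnpc, Sf3b6 and Prpf4b. Hnrnpf had the widest gap, from -0.80 to 0.48.

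**Figure D5:**
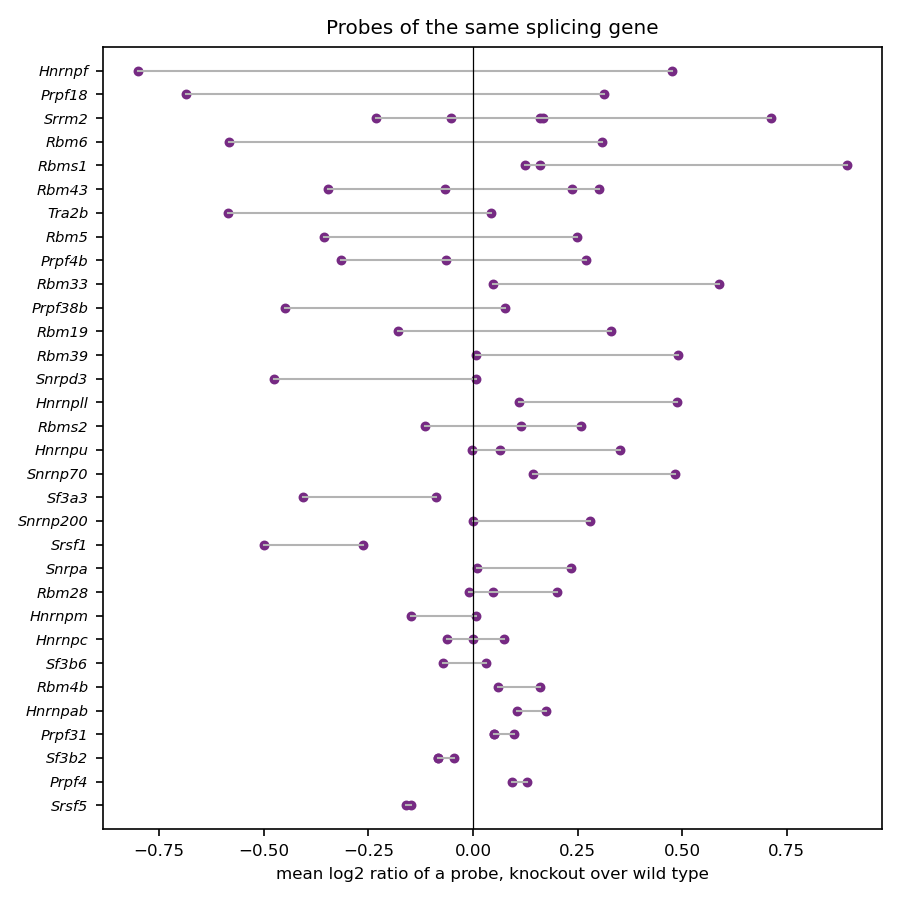
Mean log2 ratio of each probe (points, x axis) for the 32 splicing genes with more than 1 well covered probe, ordered by the gap between probes. Srsf5 probes lie 0.01 apart and those of Hnrnpf 1.28 apart.

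Splicing genes outside these families were taken from a separate list. Of 155 listed, which included helicases, Lsm proteins, SR protein kinases and further RNA binding proteins, 120 were found by symbol and 119 were tested. By limma 0 were called (adjusted p of 0.70 or higher), and at an unadjusted p below 0.05 there were 3 higher and 3 lower, against 2.4% and 2.95% of all genes. Their median was 0.06, with 73 means above 0 and 46 below. Ybx1, a cold-shock domain protein of mRNA particles, stood at 0.44 ± 0.43 (SD, n = 14) and Lsm11, of the histone mRNA processing U7 particle, at 0.49 ± 1.20 (SD, n = 14). The lowest were the cyclophilin Ppie at -0.57 ± 2.11 (SD, n = 11) and the polypyrimidine tract binding protein Ptbp3 at -0.94 ± 1.31 (SD, n = 11).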

How the data were processed

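The authors deposited 1 log2 ratio per probe and array. The base was read from the values. The labels used here name no scanner, background correction or normalization. Array medians as deposited ran from -0.334 to 0.245. Values above 12 in size, a code that filled 91 to 315 cells per array, were set to missing. Arrays were median-centred after that. Of 20355 probes, 14030 had 1 gene symbol in the platform annotation, 5 had several and 6320 had none. Probes were averaged per gene, giving 9930 genes.

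Genes with a value on at least 10 arrays were tested with limma 3.58.1 in R 4.3.3 (lmFit, eBayes), with an intercept against 0 and a dye term, adjusted by Benjamini-Hochberg over all 9290 genes. The script was tested on simulated data. A mean ± SD is over arrays, and estimates, intervals and gene orders come from the model, which weights dye orientations equally. Genes named by rule were the 8 with the smallest p, the 4 highest and 4 lowest estimates, the 4 smallest dye p, the 4 smallest SD among genes on 14 arrays, each family's highest and lowest estimate, U2af1, the Luc7l genes and those beside the 10-array limit. Among the other splicing genes these were the 2 highest and 2 lowest. Further genes were named after their values were seen. Alternatives covered centring, filters, probes, blocks and arrays, and an exact sign permutation. The genes, lists and tests were chosen with earlier results of these data known.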

Additional observations from a re-analysis of the deposited data

How the results depend on the processing

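The count of splicing genes called for the mean ratio was 0 under all 30 alternatives run, which changed centring, scaling, coded extremes, missing values, probes, the dye term, the eBayes prior, dim spots, blocks, the arrays used and the test. The count by exact sign permutation over all genes was added after seeing the data. At an unadjusted p the count ran from 0 to 8, the latter with the 7 arrays with the knockout in Cy3 alone. Genes were filtered there by coverage on those 7 arrays, so the set was not exactly the same 84. The share of all genes in that alternative was not counted, so the 8 has no background beside it. The smallest adjusted p of these 84 genes in any alternative was 0.221 (limma, Snrnp48 with number ranges as a fixed block). The dye term called 0 under 25 alternatives and the other splicing genes 0 under 30, with smallest adjusted p-values of 0.377 and 0.0923 in that order. The 28 named genes gave 813 values, of which 39 had another sign than reported and 0 passed. In 1 alternative the arrays with the knockout in Cy3 were turned in sign, which makes the estimate a dye comparison. Without that alternative and those of a single dye orientation, 13 values had another sign. Coded extremes kept as values turned Luc7l to -0.40 and Hnrnpll to -0.33. Each ratio compares knockout and wild type on the same array, so the tests against 0 were already paired by array. No further pairing was possible, as the arrays form only 1 group and are not tied to cultures. The deposited ratios carry no intensity, so dim spots could not be told apart by signal. Setting ratios of small whole numbers to missing left 58 of 84 splicing genes testable.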
